A study of Mus musculus with 7 samples.

Results

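The transporters described here are the genes of the Slc1, Slc3, Slc6, Slc7, Slc15, Slc36, Slc38 and Slc43 families, chosen by gene symbol from an Affymetrix mouse array. Of 18193 genes with a probe set of their own, 68 had such a symbol. Of the 68, 65 were transporter genes or transporter heavy chains, and 3 (Slc7a6os, Slc36a1os and Slc6a19os) only carry the name of a transporter gene on the opposite strand. Each gene was represented by its probe set with the highest mean over all arrays. Of the 68 genes, 34 had further probe sets.

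The tissue was terminal ileum of male C57BL6J mice aged 8 weeks. The penicillin group was 4 mice given penicillin at 6.7 mg/L, a low dose, from birth, and the control group was 3 mice given no antibiotic. All 7 mice received chow at weaning, at 4 weeks, and high fat food (45% of kcal as fat) from 6 weeks on. Each array held the total RNA of 1 labelled biological replicate, and neither litter nor cage was among the labels used here, so a difference between litters or cages and an effect of penicillin cannot be told apart. The growth text speaks of livers, but Fabp6, the ileal bile acid carrier, lay between log2 14.28 and 14.64 on all 7 arrays.

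Dietary protein leaves the gut lumen as small peptides and free amino acids. Slc15a1 (PEPT1) takes up di- and tripeptides with protons, and sodium-coupled carriers such as Slc6a19 (B0AT1) and exchangers such as Slc7a9 with its heavy chain Slc3a1 take up free amino acids across the brush border. Slc7a7 and Slc7a8, each with the heavy chain Slc3a2, and uniporters of the Slc43 family pass amino acids on towards the blood. The Slc6 family also holds carriers of monoamines, taurine, creatine and glycine, and several Slc38 and Slc36 proteins work in other cells or in lysosomes.

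In these ilea no transporter gene passed the test between penicillin and control mice. Of 51 genes tested with limma, 0 had an adjusted p under 0.05, the smallest being 0.290, against 13 of 13644 genes (0.0953%) on the whole array, 0.00733% with higher and 0.0880% with lower values. The value with the smallest p was that of Slc6a20a, the proline carrier SIT1 of the brush border, with a difference of 0.62 ± 0.159 (SE, 1.53-fold) on the log2 scale. Several carriers differed more between control mice than between the groups. In control replicate 3 Slc6a19, Slc15a1, Slc3a1, Slc7a7, Slc43a2 and Slc7a15 lay at least log2 1 below the mean of the other control mice.

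The promoter sequences of 4 genes are shown because Slc6a20a and its paralog Slc6a20b, both on chromosome 9, were the transporters with the largest test statistics for higher values, and because Slc15a1 and Slc6a19 are apical carriers that lay at least log2 1 lower in control replicate 3 than in the other control mice. They are the 250 bases before the start of transcription, 5′ to 3′, from RefSeq (GRCm38.p6). The letters in capitals mark a GC box (GGGCGG), a part of the HNF1 motif (GTTAAT), a CDX site (TTTATG) or a TATA box (TATAAA) on either strand. The whole HNF1 motif was not searched.
Slc6a20a (chr9:123678833-123679082, minus strand): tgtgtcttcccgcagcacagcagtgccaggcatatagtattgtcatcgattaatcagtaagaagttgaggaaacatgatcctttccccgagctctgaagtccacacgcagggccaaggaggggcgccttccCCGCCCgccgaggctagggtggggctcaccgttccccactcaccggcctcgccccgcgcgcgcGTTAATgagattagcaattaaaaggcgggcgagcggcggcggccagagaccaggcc
Slc6a20b (chr9:123632539-123632788, minus strand): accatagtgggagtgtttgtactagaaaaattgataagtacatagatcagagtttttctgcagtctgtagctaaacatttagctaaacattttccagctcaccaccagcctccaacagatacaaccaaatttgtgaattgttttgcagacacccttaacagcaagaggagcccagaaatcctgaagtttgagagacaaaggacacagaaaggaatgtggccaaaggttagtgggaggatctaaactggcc
Slc15a1 (chr14:121505255-121505504, minus strand): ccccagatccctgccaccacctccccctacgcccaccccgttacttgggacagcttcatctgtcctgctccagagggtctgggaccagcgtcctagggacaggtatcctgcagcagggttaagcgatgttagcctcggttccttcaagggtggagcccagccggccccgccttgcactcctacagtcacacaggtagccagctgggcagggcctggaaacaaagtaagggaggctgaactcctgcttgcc
Slc6a19 (chr13:73692637-73692886, minus strand): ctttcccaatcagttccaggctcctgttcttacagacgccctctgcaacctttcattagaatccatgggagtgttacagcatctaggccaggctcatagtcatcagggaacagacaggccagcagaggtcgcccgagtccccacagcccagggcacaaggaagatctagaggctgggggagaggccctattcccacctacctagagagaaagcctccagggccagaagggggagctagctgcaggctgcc

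Of these windows, that of Slc6a20a held matches, a GC box that began 119 bases and a part of the HNF1 motif that began 56 bases before the start. Among all 32851 promoter windows of this length in the table, 32.7% held a GC box, 6.43% this part of the HNF1 motif, 10.8% a CDX site and 12.4% a TATA box. The table had windows for 50 of the 68 genes, 71 windows in all. Of these, 33 held a GC box, 6 the part of the HNF1 motif, 1 a CDX site and 6 a TATA box. The TATA box matches were in windows of Slc3a1, Slc7a1, Slc7a15, Slc43a1, Slc1a3 and Slc38a4, and the nearest of those in Slc3a1 began 18 bases before its start. These matches are letters in a sequence and not measured binding sites.

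Expression values are log2 values made by RMA, which adjusts for background, gives all arrays 1 distribution and gives no call of presence. A level to compare with was therefore taken from 71 olfactory and vomeronasal receptor genes, which the ileum is not known to express. Their median was log2 3.60 and their 95th percentile was log2 5.23. On all 7 arrays, 43 of the 68 genes lay above this reference level, as did 64.7% of all genes. Probe sets differ in how strongly they bind, so a higher value of 1 gene than of another is no statement on the number of transcripts.

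**Figure D1:**
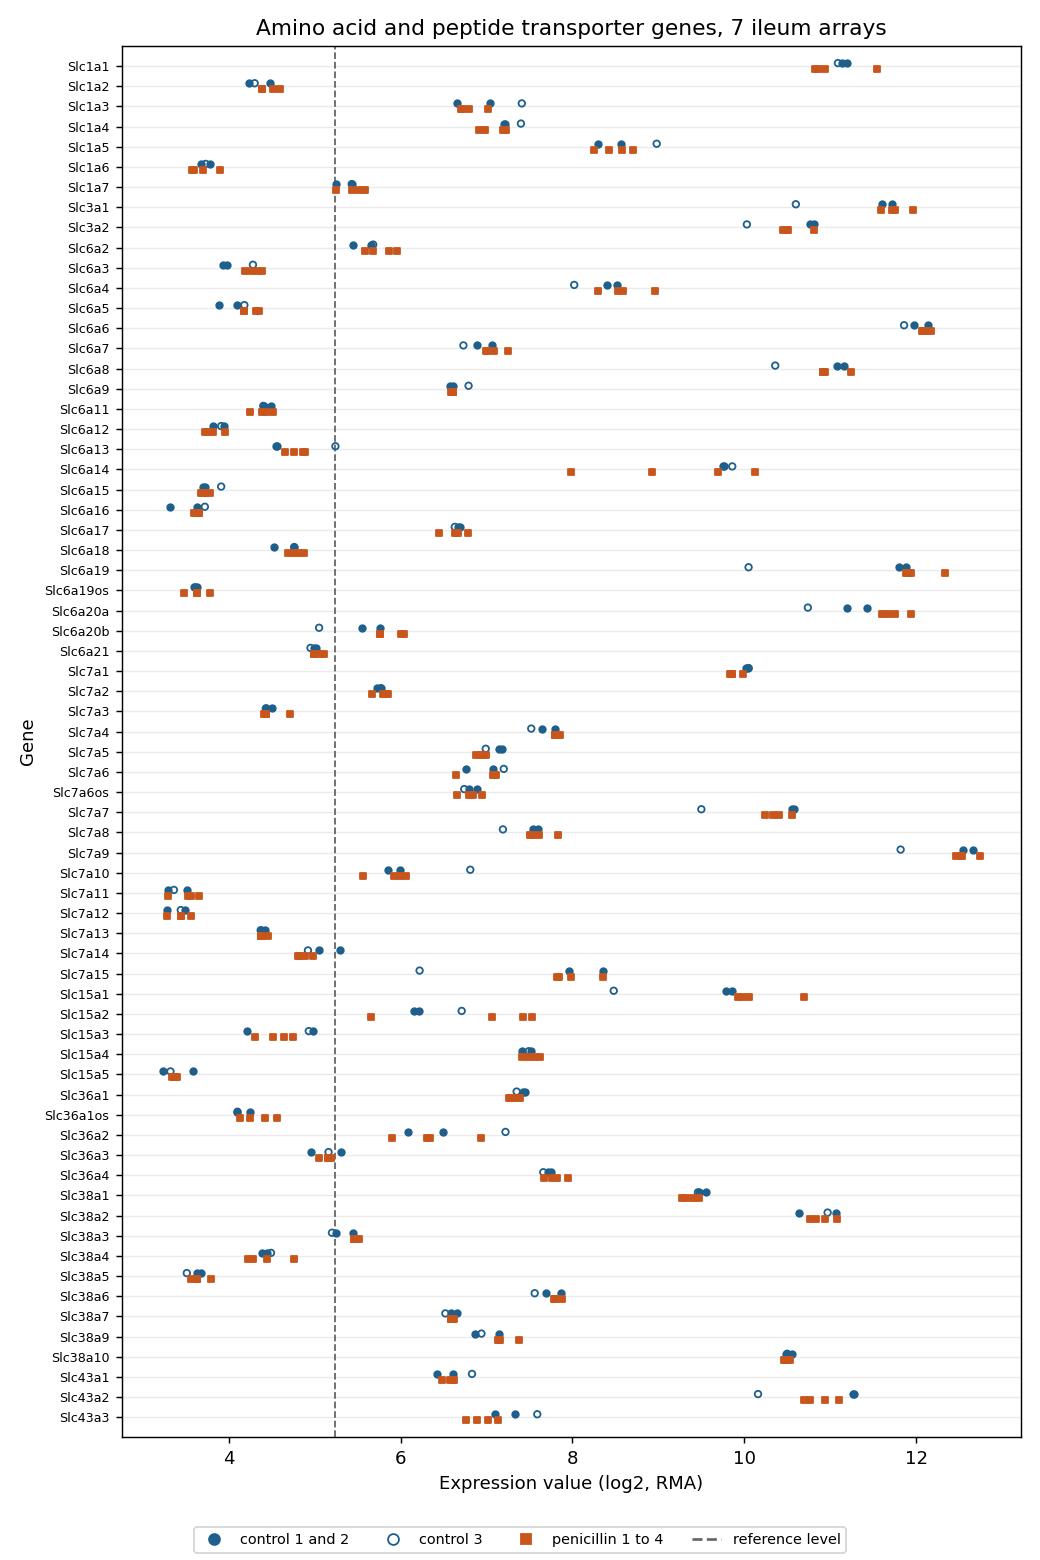
Log2 expression value (horizontal axis) of each of the 68 genes (vertical axis, by family) on the 7 arrays; filled circles are control replicates 1 and 2, open circles control replicate 3, squares the 4 penicillin mice, and the dashed line the reference level of log2 5.23. The open circle is set apart to the left for Slc6a19 (10.05), Slc7a15 (6.22) and Slc15a1 (8.48), and the squares are spread widely for Slc6a14 and Slc15a2.

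Among the genes for apical uptake, 9 of 11 were above the reference level, and so were both heavy chains and all 6 genes of the basolateral exchange and efflux group. The 9 include Slc36a2, which is also known as a surface marker of fat cells, and the cells that gave its signal were not tested. Slc7a9, Slc6a6 (the taurine carrier), Slc6a19, Slc3a1, Slc6a20a and Slc1a1 (the glutamate and aspartate carrier EAAT3) had signals between the 94.1th and the 98.4th percentile of all genes. The signals of 11 of the 68 genes lay in the top 10% of all genes on the array and those of 16 in the top 25%. Among the 5 peptide transporter genes, Slc15a1, Slc15a2 and Slc15a4 were above the reference level, whereas Slc15a3 and Slc15a5 were not. Of the 14 genes of the Slc6 group for neurotransmitters and osmolytes, 6 were above it. These were Slc6a8, the creatine carrier, Slc6a4, the serotonin carrier, Slc6a7, Slc6a17, Slc6a9 and Slc6a2. The last 4 had means of log2 7.0, 6.64, 6.63 and 5.7, and the other probe sets of Slc6a2 had means of 3.21 to 3.87.

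The 25 genes not above the reference level on every array included brain carriers such as Slc1a2, Slc6a3, Slc6a5 and Slc6a11, which move glutamate, dopamine, glycine and GABA. They also included Slc7a11, the cystine and glutamate exchanger, at log2 3.29 to 3.65, and Slc6a18, an apical amino acid carrier known from kidney, at log2 4.52 to 4.87. Slc6a20b was counted there because control replicate 3 lay at 5.05, while the other 6 arrays lay between 5.55 and 6.04. A filter at the 25th percentile of gene means (log2 4.588) left 51 of the 68 genes for testing.

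Control replicate 3 stood apart in the transporter genes before any comparison of the groups. It had the lowest of the 7 values in 21 of the 51 tested genes (41.2%), where 21.6% of all tested genes were lowest there. It had the highest value in 11 (21.6%), where the share of all tested genes was 30.2%. The 6 genes given above fell short of the mean of control replicates 1 and 2 by log2 1 or more, which 0.777% of all tested genes did.

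The same array was lowest for genes of the absorptive surface in general. Of 14 tested peptidase genes, which complete protein digestion at the brush border and in the cell, 13 were lowest there. Of 13 tested enterocyte markers 11 were lowest there, and the mean of this list relative to the average of the 7 arrays was -0.76 on this array, with a range of -0.13 to 0.49 on the others. The summed level of these markers lay between log2 16.05 and 16.61 in control and between 16.57 and 16.78 in penicillin mice. Of 11 colon markers with a probe set, 5 were above the reference level, and the mean of the list was 1.20 in control replicate 3 and -0.43 to 0.06 elsewhere. Of the 8 tested colon markers 4 were highest in control replicate 3, namely Car1 (14.10 against 5.11 to 10.82), Aqp8 (8.27 against 3.86 to 4.29), Cyp2c55 (12.06 against 8.48 to 10.01) and Slc37a2 (6.42 against 4.67 to 5.03). The other 4, Car4, Slc26a3, B3gnt7 and Mettl7b, lay there within the range of the other arrays. The part of these cells in the transporter values was not tested. In RNA of whole tissue, fewer cells of a type and less RNA per cell cannot be told apart.

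**Figure D2:**
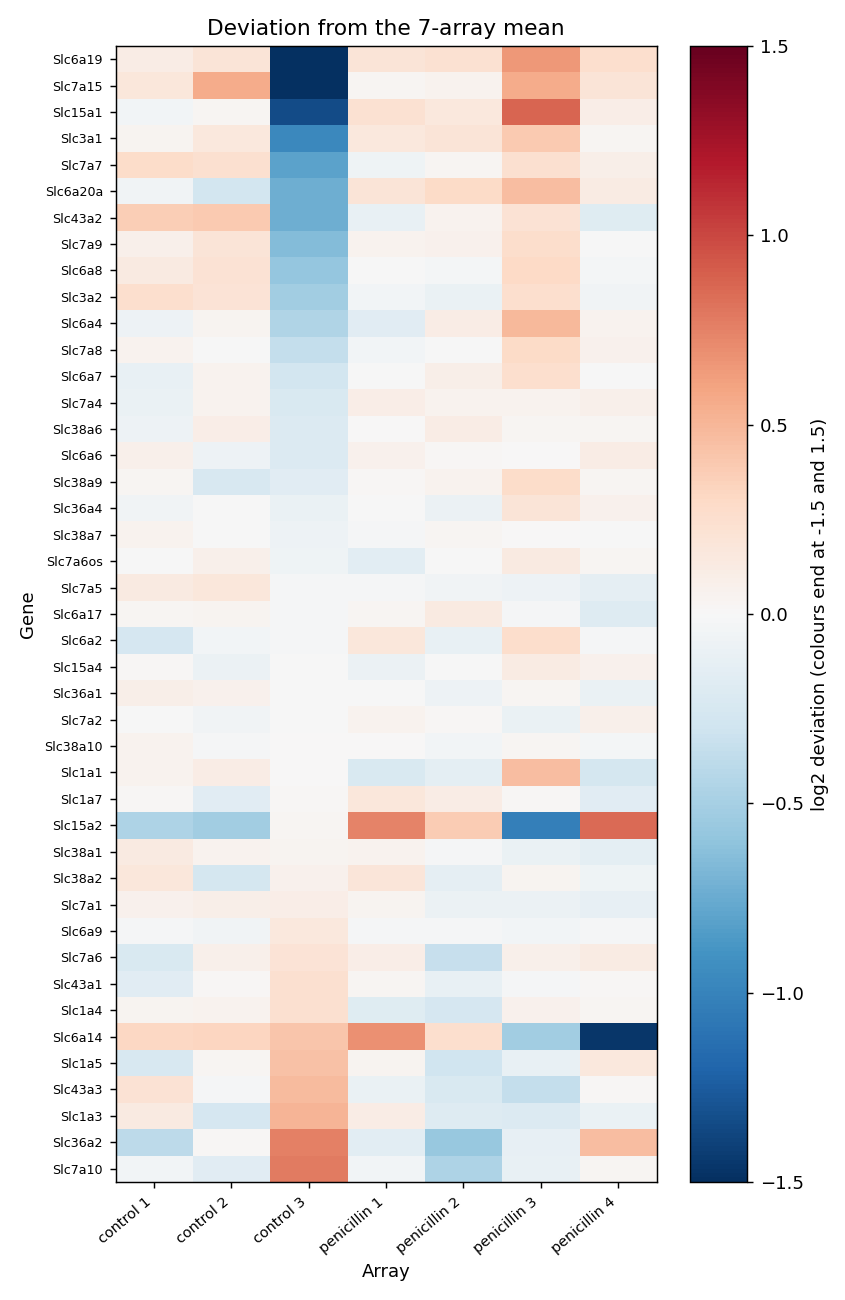
Deviation of each value from the mean of the 7 arrays (colour, log2 units) for the 43 genes above the reference level (rows, ordered by the value in control replicate 3) on the 7 arrays (columns). The column of control replicate 3 is dark blue at the top, where Slc6a19, Slc7a15 and Slc15a1 stand, and red at the bottom, where Slc36a2 and Slc7a10 stand.

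Peptide transport was the group with the largest single difference. Slc15a1 was at 9.79, 9.86 and 8.48 in control replicates 1 to 3 and at 10.05, 9.98, 10.70 and 9.93 in penicillin replicates 1 to 4. Every penicillin mouse was above every control mouse, though the distance between penicillin replicate 4 and control replicate 2 was small beside the gap to control replicate 3. The difference was 0.79 ± 0.352 (SE, 95% interval -0.03 to 1.61; adjusted p = 0.481 in limma), and without control replicate 3 it was 0.34 ± 0.213 (SE, adjusted p = 0.605).

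Slc15a2 (PEPT2), the high-affinity peptide carrier best known from kidney and glia, was at 6.21, 6.16 and 6.71 in control mice and at 7.42, 7.06, 5.65 and 7.53 in penicillin mice. Penicillin replicates 1, 2 and 4 were above all control mice, and penicillin replicate 3 was below all of them. The difference of 0.55 ± 0.434 (SE, adjusted p = 0.624) had an interval from -0.46 to 1.56, and leaving out penicillin replicate 3 gave 0.97, whereas leaving out replicate 4 gave 0.35. Its other probe sets had means of log2 4.23 and 4.16, under the reference level, and did not follow this pattern. Slc15a4, which carries histidine and peptides out of lysosomes, differed by 0.05 ± 0.0642 (SE), with an interval from -0.10 to 0.20.

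Among the sodium-coupled carriers of the brush border, Slc6a20a was at 11.43, 11.20 and 10.74 in control mice and at 11.67, 11.76, 11.94 and 11.60 in penicillin mice. The groups did not overlap. The mean went from 11.12 ± 0.348 (SD, n = 3) to 11.74 ± 0.147 (SD, n = 4), with a 95% interval of the difference from 0.25 to 0.99 and an adjusted p of 0.290 in limma. Without control replicate 3 the difference was 0.43 ± 0.111 (SE, adjusted p = 0.248 in limma), so that array accounted for part of its size and not for its direction.

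Slc6a20b was at 5.76, 5.55 and 5.05 in control mice and at 5.76, 6.00, 6.04 and 5.76 in penicillin mice. Its values lay close to the reference level and the groups met at 5.76. The difference was 0.44 ± 0.166 (SE, adjusted p = 0.428), or 0.23 ± 0.110 without control replicate 3, and its other probe set differed by 0.33. Because the genes are paralogs, some signal shared between their probe sets was not tested.

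Slc6a19, the main carrier of neutral amino acids, was at 11.80, 11.88 and 10.05 in control mice and at 11.88, 11.91, 12.34 and 11.94 in penicillin mice. Control replicate 3 lay farthest from the rest, and penicillin replicate 3 was the highest. The difference of 0.77 ± 0.421 (SE, interval -0.21 to 1.75, adjusted p = 0.527) was 0.18 ± 0.136 without that mouse. The other probe set of Slc6a19 gave the same difference of 0.77.

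The exchanger of cystine and cationic amino acids is made of Slc7a9 and Slc3a1. Slc7a9 was at 12.55, 12.66 and 11.82 in control mice and at 12.52, 12.54, 12.74 and 12.47 in penicillin mice. Slc3a1 was at 11.60, 11.72 and 10.60 in control mice and at 11.72, 11.76, 11.96 and 11.59 in penicillin mice. In both genes the arrays other than control replicate 3 overlapped. The differences of 0.23 ± 0.192 and 0.45 ± 0.255 (SE) became -0.04 ± 0.0866 and 0.10 ± 0.103 without it. Slc7a15, a further light chain of the Slc7 family, was at 7.96, 8.35 and 6.22 in control mice and at 7.82, 7.84, 8.35 and 7.98 in penicillin mice, and its difference turned from 0.49 ± 0.460 to -0.15 ± 0.177 (SE) without control replicate 3.

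Slc6a14 (ATB0,+), a broad carrier of neutral and cationic amino acids, varied most within the penicillin group. It was at 9.75, 9.76 and 9.86 in control mice and at 10.13, 9.69, 8.92 and 7.98 in penicillin mice. Penicillin replicates 2, 3 and 4 were below every control mouse, replicate 2 by a small step, penicillin replicate 1 was above them and the SD was 0.0622 in control and 0.945 in penicillin mice. The difference was -0.61 ± 0.455 (SE, interval -1.67 to 0.45, adjusted p = 0.606 in limma), and leaving out penicillin replicate 4 gave -0.21, whereas leaving out replicate 1 gave -0.93. Its other probe set had the same order of penicillin mice, at 9.72, 9.25, 8.26 and 7.38, against 9.25, 9.37 and 9.36 in control mice.

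Slc1a1 was at 11.14, 11.20 and 11.09 in control mice and at 10.86, 10.94, 11.55 and 10.82 in penicillin mice. Penicillin replicate 3 was above all control mice and the other penicillin mice were below them, and all 3 probe sets showed this. The difference was -0.10 ± 0.171 (SE), and leaving out penicillin replicate 3, 1 or 4 gave -0.27, -0.04 or -0.03. Slc1a5, an exchanger of neutral amino acids known from dividing cells, was at 8.30, 8.57 and 8.98 in control mice and at 8.58, 8.25, 8.43 and 8.70 in penicillin mice. Its groups overlapped, with a difference of -0.12 ± 0.169 (SE) that was 0.06 without control replicate 3. Slc36a1, the proton-coupled carrier of glycine and proline, was at 7.45, 7.42 and 7.35 in control mice and at 7.35, 7.28, 7.39 and 7.26 in penicillin mice, a difference of -0.09 with an interval from -0.22 to 0.04.

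**Figure D3:**
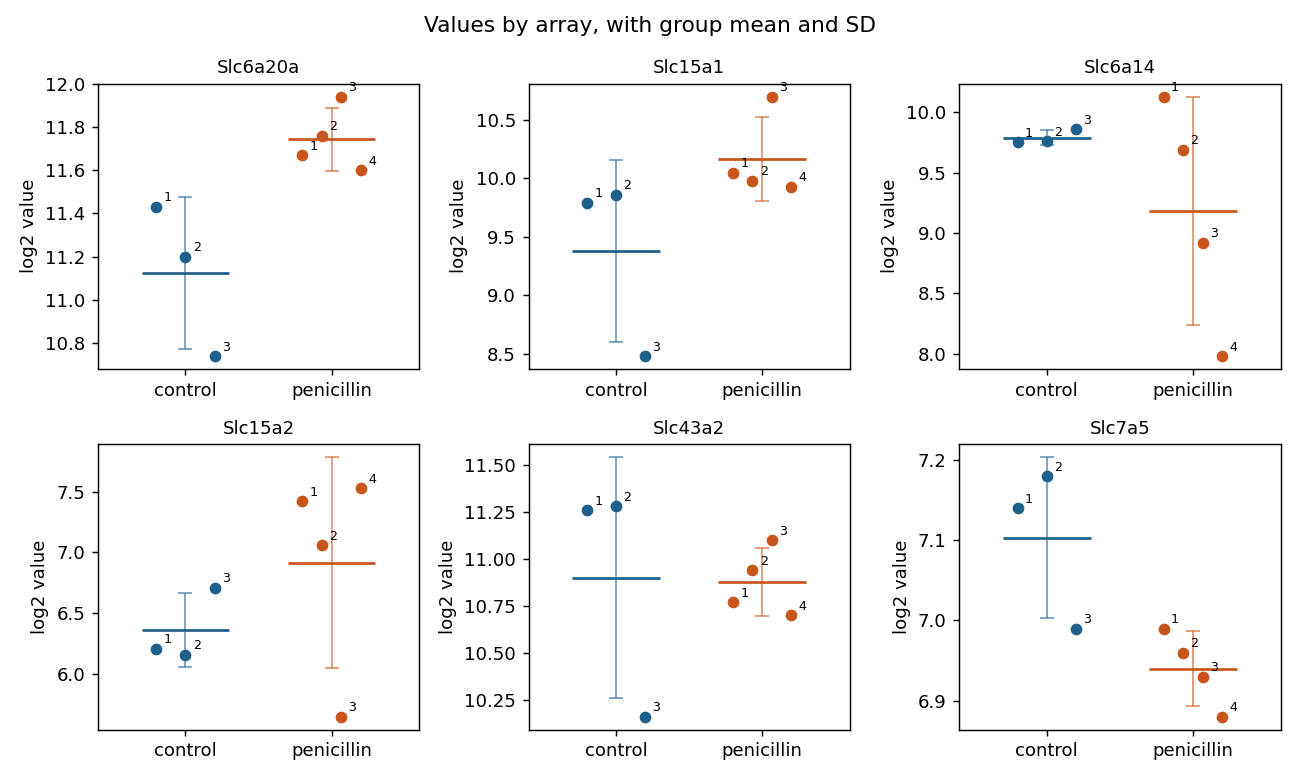
Log2 expression value of 6 genes by array (points, numbered by replicate), with the group mean (line) and SD (bar); blue is control (n = 3), orange penicillin (n = 4), and each panel has its own scale, which does not start at 0. The groups are apart for Slc6a20a, penicillin replicates 3 and 4 lie low for Slc6a14, penicillin replicate 3 lies low for Slc15a2, and control replicate 3 lies low for Slc15a1 and Slc43a2.

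Of the 6 carriers that pass amino acids on to the blood, 2 had higher and 4 lower values in penicillin mice, and none passed the test (1 had an unadjusted p under 0.05 in limma). Without control replicate 3, Slc43a2, Slc7a5 and Slc7a7 had lower values and Slc7a6, Slc43a1 and Slc7a8 higher ones. Slc43a2 (LAT4), a uniporter of branched-chain amino acids and phenylalanine, was at 11.26, 11.28 and 10.16 in control mice and at 10.77, 10.94, 11.10 and 10.70 in penicillin mice. All penicillin mice lay between control replicate 3 and the other controls. The difference was -0.02 ± 0.268 (SE, adjusted p = 0.981) with all arrays and -0.39 ± 0.115 (SE, adjusted p = 0.299 in limma) without control replicate 3, and all 3 probe sets were lowest in control replicate 3.

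Slc7a7 (y+LAT1), which exports cationic amino acids, was at 10.58, 10.55 and 9.50 in control mice and at 10.24, 10.34, 10.55 and 10.40 in penicillin mice. Its heavy chain Slc3a2 was at 10.81, 10.76 and 10.03 in control mice and at 10.51, 10.45, 10.81 and 10.50 in penicillin mice. Without control replicate 3 the differences were -0.18 ± 0.0876 and -0.21 ± 0.107 (SE), against 0.17 ± 0.251 and 0.04 ± 0.193 with it. Neither passed in limma in either fit (adjusted p from 0.512 to 0.946).

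Slc7a5 (LAT1), the large neutral amino acid exchanger of activated and dividing cells, was at 7.14, 7.18 and 6.99 in control mice and at 6.99, 6.96, 6.93 and 6.88 in penicillin mice. The penicillin mice reached up to control replicate 3 only. The difference was -0.16 ± 0.0622 (SE, adjusted p = 0.425), or -0.22 ± 0.0529 (SE, adjusted p = 0.216) without control replicate 3, the smallest adjusted p of the 51 genes in that fit. Markers of lymphocytes, in which Slc7a5 is also known, were lower in penicillin mice. All 7 tested T cell markers had lower values there, with a summed level of log2 9.40 to 9.95 against 10.81 to 11.51 in control mice, and so had all 4 tested markers of B and plasma cells (11.66 to 12.31 against 13.03 to 13.10). Their part in the values of Slc7a5 was not tested.

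Slc7a8 (LAT2) was at 7.60, 7.54 and 7.19 in control mice and at 7.50, 7.54, 7.83 and 7.61 in penicillin mice. Its groups overlapped, with a difference of 0.18 ± 0.119 (SE) that was 0.05 without control replicate 3. Slc43a1 and Slc7a6 differed by -0.05 and -0.03, and their probe sets lay near the middle of the array's range.

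Slc7a1 (CAT1), the widely expressed carrier of cationic amino acids, was at 10.02, 10.04 and 10.05 in control mice and at 9.99, 9.86, 9.86 and 9.83 in penicillin mice. It was the only tested gene of the 51 with every penicillin mouse below every control mouse, though 9.99 and 10.02 lay close together. The difference of the means was -0.15 ± 0.0551 (SE, adjusted p = 0.420 in limma). Its next brightest probe set differed by -0.16, with 8.85 reached in both groups, and its dimmest by 0.1. Slc7a4 was at 7.65, 7.80 and 7.52 in control mice and at 7.85, 7.80, 7.80 and 7.82 in penicillin mice, with a difference of 0.16 ± 0.0704 (SE), or 0.09 without control replicate 3. Its next brightest probe set, with a mean of log2 6.51, differed by -0.04, and its dimmest, with a mean of log2 3.6, by 0.12. Slc7a14 was at 5.29, 5.05 and 4.92 in control mice and at 4.80, 4.98, 4.89 and 4.82 in penicillin mice, below the reference level except in control replicate 1.

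Of the Slc38 family, carriers of glutamine and other small neutral amino acids, 6 of 9 genes were above the reference level. Slc38a2 (SNAT2) was at 11.07, 10.64 and 10.97 in control mice and at 11.08, 10.77, 10.94 and 10.84 in penicillin mice, a difference of 0.02 with an interval from -0.26 to 0.29. Slc38a1 was at 9.56, 9.47 and 9.46 in control mice and at 9.47, 9.40, 9.32 and 9.28 in penicillin mice, a difference of -0.13 ± 0.0640 (SE). Both sets of values overlapped between the groups.

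Slc38a9, an arginine sensor of the lysosome, was at 7.14, 6.87 and 6.94 in control mice and at 7.13, 7.16, 7.38 and 7.14 in penicillin mice. Its difference of 0.22 ± 0.0913 (SE, adjusted p = 0.458) was not shared by its other probe sets, of which the next brightest differed by -0.18. Slc38a3 (SNAT3) was at 5.25, 5.45 and 5.20 in control mice and at 5.51, 5.46, 5.48 and 5.46 in penicillin mice. Its groups did not overlap, at values close to the reference level, and the difference was 0.18 ± 0.0682 (SE, adjusted p = 0.430). Slc38a10 had the smallest SE of those above the reference level, 0.0481, and differed by -0.02 with an interval from -0.13 to 0.09.

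Some carriers were high, not low, in control replicate 3. Slc7a10, an exchanger of small neutral amino acids, was at 5.99, 5.85 and 6.81 in control mice and at 5.99, 5.56, 5.92 and 6.06 in penicillin mice. Slc36a2, a proton-coupled carrier, was at 6.08, 6.49 and 7.22 in control mice and at 6.31, 5.90, 6.34 and 6.93 in penicillin mice. Both genes are known as surface markers of fat cells and both were highest in control replicate 3. Of 8 fat cell markers, a list drawn up after these values were seen, 6 had a probe set and all 6 were highest in control replicate 3. Among them Adipoq, the fat cell hormone adiponectin, was at 12.81 there and at 11.07 to 11.78 elsewhere. The summed level of the list lay between log2 14.47 and 15.32 in control mice and between 14.19 and 14.80 in penicillin mice, and its part in the values of Slc7a10 and Slc36a2 was not tested.

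Slc43a3, a nucleobase carrier in spite of its family name, was at 7.33, 7.10 and 7.59 in control mice and at 7.02, 6.89, 6.76 and 7.13 in penicillin mice. The groups overlapped by a little, and the difference of -0.39 ± 0.130 (SE, adjusted p = 0.397) was -0.27 ± 0.117 without control replicate 3. Slc1a4, an exchanger of alanine, serine and cysteine, was at 7.20, 7.21 and 7.40 in control mice and at 6.98, 6.91, 7.23 and 7.19 in penicillin mice, a difference of -0.19 ± 0.0969 (SE). Its other probe sets differed by -0.01 and -0.04. Slc6a4 was at 8.40, 8.52 and 8.02 in control mice and at 8.30, 8.59, 8.96 and 8.53 in penicillin mice, and its groups overlapped.

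Over the 51 tested genes, 30 had higher and 21 lower values in penicillin mice. The median difference was 0.03, beside -0.01 over all tested genes. The median of the differences without their sign was larger, 0.149 beside 0.0818 over all tested genes. At an unadjusted p under 0.05 in limma, 4 genes were higher (Slc6a20a, Slc6a20b, Slc38a3 and Slc38a9) and 3 lower (Slc43a3, Slc7a1 and Slc7a5), 13.7% of the 51 beside 10.7% of all genes (4.37% higher and 6.35% lower). The groups did not overlap in 4 genes (7.84%), Slc15a1, Slc6a20a and Slc38a3 with higher and Slc7a1 with lower values, beside 10.3% of all genes (4.29% higher and 6.05% lower). These shares are near those of the whole array.

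The intervals give a range for the difference of each gene on its own and are not adjusted for the number of genes. The 95% interval of the difference lay within log2 0.5 in either direction for 31 of the 51 genes and within log2 1 for 45. Without control replicate 3, 0 genes had an adjusted p under 0.05 in limma (8 of all genes, 0.0586%), 2 were higher and 3 lower at an unadjusted p under 0.05 (4.33% and 6.28% of all genes), and 13 of the 51 differences changed sign. With array quality weights, which set control replicate 3 at 0.249 and control replicate 1 at 4.53, limma called 4 genes: Slc38a3 higher and Slc43a3, Slc7a14 and Slc7a5 lower. That fit called 5.67% of all genes.

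**Figure D4:**
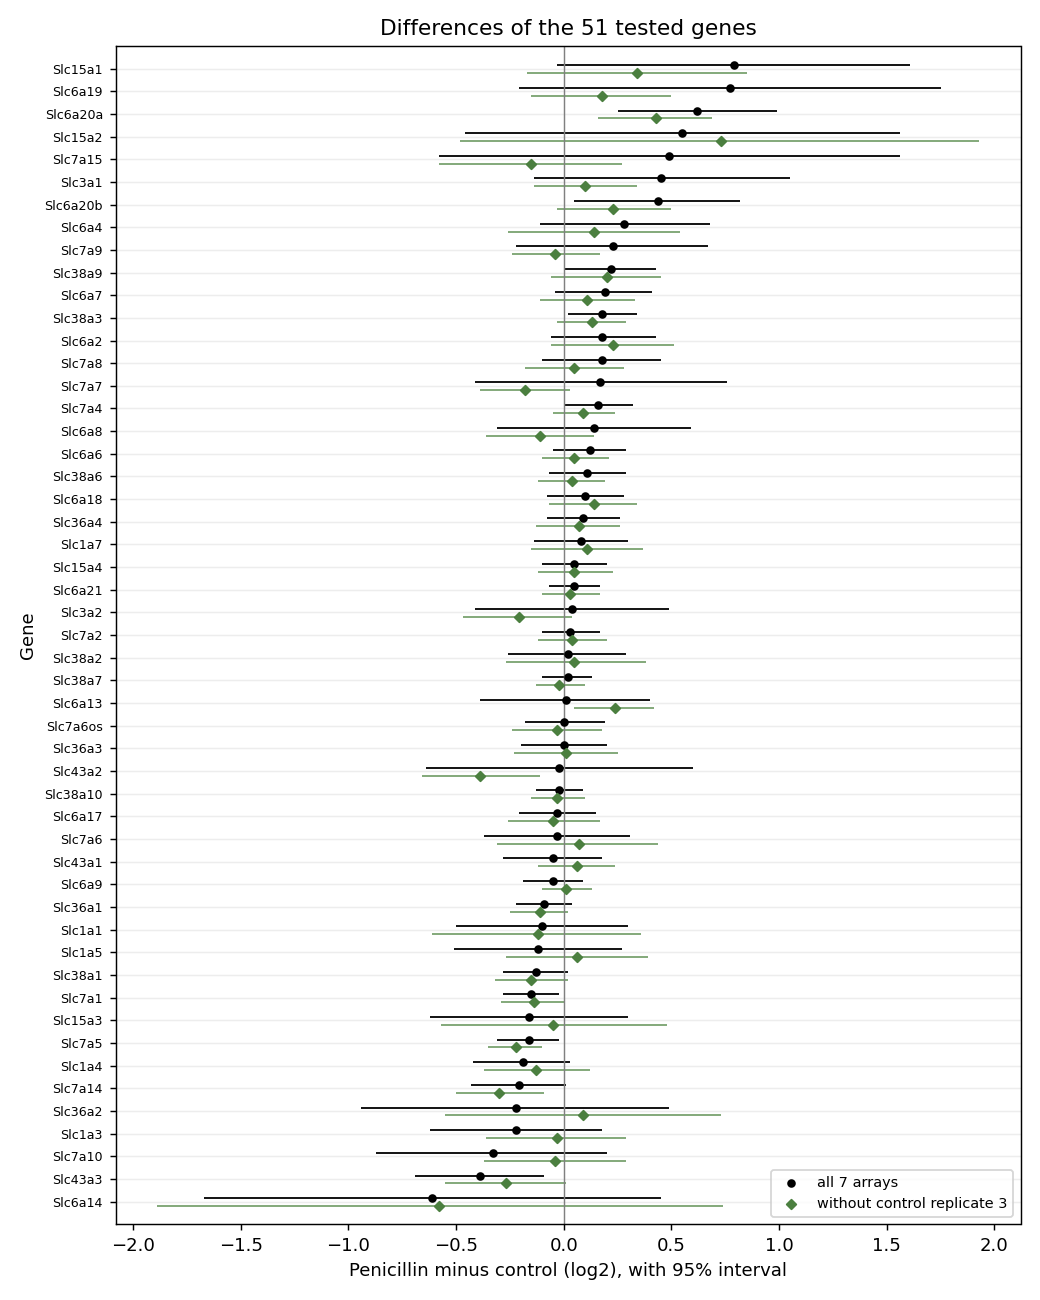
Penicillin minus control on the log2 scale (horizontal axis) with its 95% interval for the 51 tested genes (vertical axis), from all 7 arrays (black circles) and without control replicate 3 (green diamonds). Slc15a1, Slc6a19 and Slc3a1 move towards 0 without that array, Slc43a2 moves to -0.39 and Slc6a20a stays above 0.

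The other steps of amino acid handling gave a similar picture. Of 14 tested peptidase genes 0 were called in limma, and 0 had an unadjusted p under 0.05. The median difference over them was 0.26, or 0.01 without control replicate 3, and Enpep, Dpep1 and Pepd differed by 0.18, 0.44 and 0.37, or by 0.09, 0.16 and 0.05 without that array. Of 10 tested carriers outside these families, 0 were called and 0 had an unadjusted p under 0.05. Among them Slc16a10 (TAT1), the basolateral carrier of aromatic amino acids, differed by 0.41 ± 0.279 (SE), or by 0.16 without control replicate 3.

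Of 18 tested genes of the amino acid response, which cells switch on through Atf4 when amino acids run short, 0 were called in limma, and 2 were higher and 3 lower at an unadjusted p under 0.05, beside 4.37% and 6.35% of all genes. Wars, a tryptophanyl-tRNA synthetase also known to be induced by interferon gamma, differed by -0.28 ± 0.0672 (SE), Asns, asparagine synthetase, by -0.27 ± 0.0883 and Atf5 by -0.26 ± 0.0890, or by -0.15 without control replicate 3. The 2 higher genes, named after their values were seen, were Trib3, a pseudokinase induced by this response, at 0.60 ± 0.231 (SE), and Cth, an enzyme of cysteine synthesis, at 0.27 ± 0.0996. Atf4 itself differed by 0.11 ± 0.0700 (SE).

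Of 4 tested partners of the transporters, 1 was called in limma, beside 13 of 13644 genes (0.0953%). The partners were listed with earlier results of these data known. The called gene was Slc9a3, the sodium-hydrogen exchanger that supplies the protons used by Slc15a1. It was at 8.04, 7.72 and 7.89 in control mice and at 7.0, 6.71, 6.84 and 6.67 in penicillin mice, and it fell by 1.08 ± 0.104 (SE, adjusted p = 0.0232, or 0.0555 without control replicate 3). The values of Slc15a1 did not fall with it, being 10.16 ± 0.358 (SD, n = 4) in penicillin and 9.38 ± 0.779 (SD, n = 3) in control mice. The control mean includes control replicate 3 at 8.48, and without it the difference of Slc15a1 was 0.34 ± 0.213 (SE). Pdzk1, a scaffold protein of the brush border, was at 9.43 in control replicate 3 against 10.83 to 11.37 on the other arrays. It was not alone in this. On that array 3 of the 4 tested partners were lowest, as were 13 of 14 tested peptidase genes and 11 of 13 tested enterocyte markers.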

How the data were processed

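Each array gave 1 deposited log2 value for every probe set. The submitters' processing notes name RMA and affy as the authors' tools, and the sources used here do not give their versions or any build. Values lay between 2.50 and 14.7, with array medians between 5.43 and 5.45. Equalising the arrays' distributions hides any change shared by all genes. Of 45101 probe sets in the deposited table, the platform annotation gives 34945 a single gene, for 18193 genes in all. The 68 member genes had 133 such probe sets. All 68 symbols matched a RefSeq gene table. The probe set that also names Slc1a2 beside a second gene was not used.

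Each gene was represented by its brightest probe set. The dimmest genes, up to the 25th percentile of means (log2 4.588), did not enter the fit, and 13644 were tested together with limma 3.58.1 in R 4.3.3 (lmFit and eBayes, two-sided, Benjamini-Hochberg over all genes, threshold 0.05). Each difference is the penicillin mean less the control mean, and SE is its standard error. On simulated data with 13644 genes and 200 changed, drawn independently, the fit recovered 59.3% of changes of log2 0.5 and 92.6% of changes of log2 1, with 5.34% false calls. With 13 calls in the real data the threshold is harder to reach. The simulated arrays also held none that stood apart like control replicate 3. The recovered shares therefore do not describe carriers with large SEs, such as Slc6a19 (0.421) and Slc15a1 (0.352). Arrays, 3 and 4 per group, limit the precision. Values by array are given for the 6 tested genes with the largest test statistic in each direction, for 13 carriers of known importance in the gut, and for Slc15a2, Slc43a2, Slc7a15, Slc36a2, Slc7a10 and Slc6a4, added after their values were seen. The members and lists were chosen with earlier results of these data known. Alternatives changed the normalisation, filter, probe sets, variance model, pairing, threshold and arrays used. Python 3.11.15 and matplotlib 3.10.9 drew the plots.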

Additional observations from a re-analysis of the deposited data

Results flagged for a closer look

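In the group of 4 penicillin mice, 7 of the 51 tested genes (13.7%) had 1 mouse set apart from the others. Its distance to the nearest of them exceeded Dixon's 95% critical share of the group's range. A single independent gene does so by chance in about 1 of 20 cases. The genes here share the same 4 arrays, and the share of all tested genes was not taken. The count is therefore no statement on transporters in particular. In 6 of the 7 genes the mouse set apart was penicillin replicate 3. It was highest for Slc15a1 (10.70), Slc6a19 (12.34), Slc6a8 (11.24), Slc1a1 (11.55) and Slc38a9 (7.38), and lowest for Slc6a9 (6.59), whose other penicillin mice were all at 6.61. Penicillin replicate 2 was lowest for Slc7a6 (6.64). The mean of the enterocyte markers, relative to the 7 arrays, was 0.49 in penicillin replicate 3 and between -0.13 and 0.32 in the other penicillin mice.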

How the results depend on the processing

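The count of called transporter genes was 0 in limma with all 7 arrays and in every alternative fitted except array quality weights, which gave 4 (Slc38a3 at 0.21, Slc43a3 at -0.37, Slc7a14 at -0.35 and Slc7a5 at -0.20; adjusted p from 0.0393 to 0.0452). The median difference was 0.07 with the filter at the 50th percentile and lay between 0.01 and 0.06 over the fits that left out 1 array. Of 486 differences of named genes under alternatives, 27 changed sign, in 10 genes, none of them called. Array quality weights gave 0.10 for Slc1a5, 0.11 for Slc36a2, -0.15 for Slc38a2, -0.24 for Slc3a2 and -0.16 for Slc7a7. Without control replicate 3 the values were 0.06 for Slc1a5, 0.09 for Slc36a2, -0.21 for Slc3a2, -0.15 for Slc7a15, -0.18 for Slc7a7 and -0.04 for Slc7a9. Without control replicate 3 and penicillin replicate 3 together they were 0.08 for Slc1a5, 0.10 for Slc36a2, -0.29 for Slc3a2, -0.27 for Slc7a15, -0.24 for Slc7a7, -0.02 for Slc7a8 and -0.09 for Slc7a9. Slc43a2 was at 0.16 without control replicate 1, 0.17 without control replicate 2, 0.02 without penicillin replicate 1 and 0.04 without penicillin replicate 4. Slc38a2 was at -0.11 without control replicate 2 and -0.04 without penicillin replicate 1, Slc3a2 at -0.04 without penicillin replicate 3, and Slc38a9 at -0.02 with the mean of all probe sets. Over the fits that left out 1 array, Slc1a5 lay between -0.28 and 0.06, Slc36a2 between -0.48 and 0.09, Slc38a2 between -0.11 and 0.10, Slc3a2 between -0.21 and 0.17, Slc43a2 between -0.39 and 0.17, Slc7a15 between -0.15 and 0.91, Slc7a7 between -0.18 and 0.36 and Slc7a9 between -0.04 and 0.39. The cause of these changes was not tested. With the replicate number as a block 0 transporter genes were called and Slc43a2 was at 0.04. The deviations of same-numbered mice correlated at -0.16, 0 and -0.42. These correlations cannot tell whether the numbers pair the mice, since neither litter nor cage was among the labels used here. The number of genes above the reference level was 43, and 38 to 45 under its alternatives.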
